A study of Mus musculus with 12 samples.

Results

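The interaction of titanium surface and osteoclast co-culture was examined in MC3T3-E1 subclone 14, a preosteoblast line of 1 clone that came from mouse calvaria. It asks whether the difference that osteoclasts made to osteoblast RNA on titanium with nanotopography was larger, smaller or opposite to the difference they made on control titanium. All 12 libraries of the series enter it, 3 in each of 4 groups, which the labels describe as biological triplicates. Every group was kept for 7 days in medium that held ascorbic acid at 5 µg/mL and β-glycerophosphate at 7 mM. The isolated groups, CN on control titanium and NN on nanotopography, had no other cells. The co-culture groups, CN+OC and NN+OC, shared their medium for the last 2 days with RAW 264.7 cells, a mouse macrophage line, which had been grown towards osteoclasts with 50 ng/mL RANKL in inserts with 0.4 µm pores. RANKL and the insert are recorded for the co-cultures alone, so osteoclasts, RANKL, insert and added cells cannot be told apart, and "osteoclast effect" below means co-culture against isolated cells. The interaction is the osteoclast effect on nanotopography minus the osteoclast effect on control titanium, in log2 units.

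Osteoblasts lay down a collagen matrix and mineralise it, while osteoclasts resorb it. The 2 cell types signal to each other through secreted factors, among them RANKL and its decoy receptor osteoprotegerin (Tnfrsf11b). Surface topography of titanium is known to act on osteoblast adhesion and differentiation. In RNA sequencing, the share of reads that a transcript receives also depends on its base composition (the percentage of G and C, here GC content) and its length, through amplification and fragment choice.

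Read counts were given for 52654 genes, and totals per library ran from 5866842 to 9207831. Of these genes, 13340 passed a filter on low counts and were tested, 11049 of them protein-coding. The tests were edgeR quasi-likelihood tests with Benjamini-Hochberg adjustment over all tested genes, and a gene is called at an adjusted p below 0.05. Levels are given as CPM, a gene's counts scaled to a common library size, log2 values carry an approximate standard error, and the 3 libraries of a group are listed in order of replicate. Every test was made on the counts as deposited and again after each library's smooth trend with GC content and transcript length had been removed ("trend removed"). That removal takes out any difference that follows GC content or length, whatever produced it. Bulk RNA cannot tell fewer cells of a type from less RNA per cell.

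The libraries of NN+OC differed in composition from those of the other groups, with overlap in some measures. Ribosomal RNA of mitochondria (mt-Rnr1, mt-Rnr2) took 8.66 to 15.8% of counts in NN+OC, against 4.52 to 9.80% in the other groups, so these ranges overlapped. Gm42418 and Gm26917, loci known to collect reads of nuclear ribosomal RNA, took 0.351 to 0.800% in NN+OC, 1.52 to 2.08% in CN+OC, 2.77 to 5.46% in CN and 3.66 to 8.33% in NN. All 9 osteoblast markers were detected in each group, with a summed level of 28869 to 36892 CPM in NN+OC and 45410 to 63774 CPM elsewhere. Of 24 macrophage and osteoclast markers, 11 were at 0 in both isolated groups, among them Ptprc, Itgam, Tyrobp, Dcstamp and Tnfrsf11a. In CN+OC 4 were at 0, and in NN+OC only Calcr. Their summed level was 296 to 322 CPM in isolated cells, 354 to 367 CPM in CN+OC and 314 to 424 CPM in NN+OC. The part of this RNA in the results below was not tested.

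As deposited, the interaction was called for 6383 genes, 47.8% of those tested, 2994 of them higher (22.4%) and 3389 lower (25.4%). An interaction is termed higher where the osteoclast effect was more positive on nanotopography. Of the called genes, 3158 differed by 2-fold or more, 1542 higher and 1616 lower. With the trend removed, 2738 genes were called (20.5%), 1104 higher (8.28%) and 1634 lower (12.2%), and 728 reached 2-fold, 384 higher and 344 lower. In both analyses 1729 genes were called in the same direction, 685 higher and 1044 lower, which is 27.1% of the calls as deposited and 63.1% of the calls with the trend removed. A further 115 genes were called in both with opposite signs. Leaving out 1 library gave 5310 to 6957 calls as deposited. After trend removal it gave 1724 without replicate 1 of NN+OC, 1725 without replicate 3 of NN, 1744 without replicate 1 of CN, 1765 without replicate 1 of NN, and up to 3383.

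GC content ordered the interaction as deposited. Among the 999 genes under 40% GC the median interaction was 1.25 and 74.97% were called higher against 0.501% lower. Among the 489 genes of 60% GC and over the median was -1.19, with 0.204% called higher and 71.0% lower. Between these ends the medians fell in order, 0.71 at 40 to 45% GC, 0.13 at 45 to 50%, -0.46 at 50 to 55% and -0.87 at 55 to 60%. Leaving out any 1 library left the difference between the 2 end bins at -2.75 to -2.15, around -2.44 with all 12. After trend removal the 6 medians lay between -0.02 and 0.06, with 6.31 to 8.59% of each bin called higher and 11.0 to 13.6% lower.

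**Figure D1:**
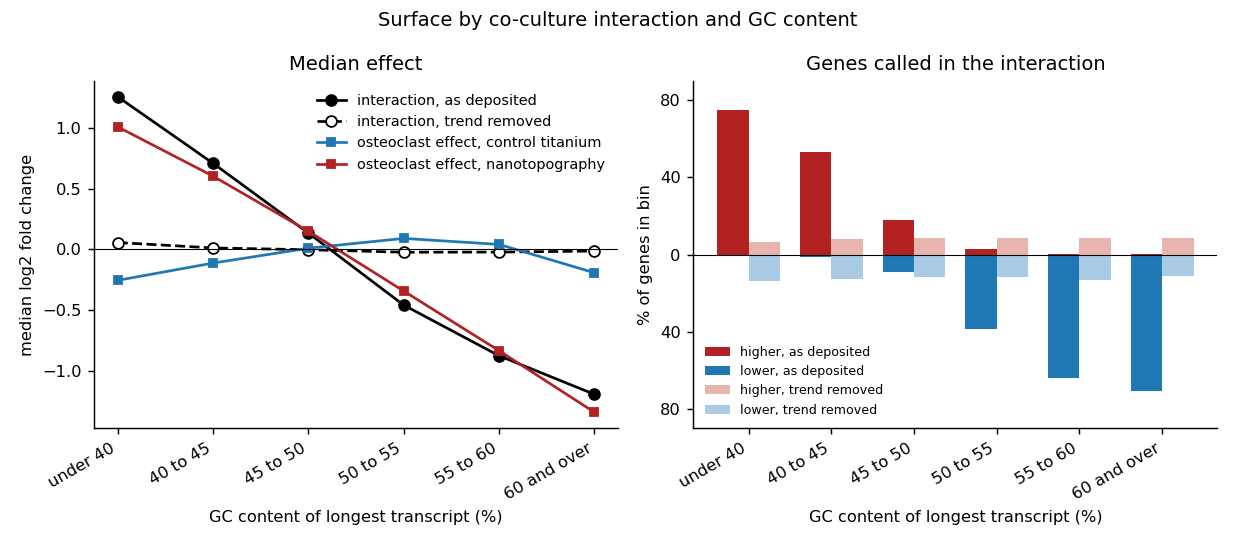
Left, median log2 fold change of the interaction (black, filled as deposited, open with the trend removed) and of the osteoclast effect as deposited on control titanium (blue) and nanotopography (red), by GC content of the longest transcript. Right, share of genes in each bin called higher (upward) or lower (downward) in the interaction. As deposited the median interaction goes from 1.25 under 40% GC to -1.19 at 60% and over, and with the trend removed it lies between -0.02 and 0.06.

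Coding sequences of 6 genes, picked from those named below, illustrate transcripts that are poor or rich in GC. None of the 6 comes from the bins of 50 to 55% or 55 to 60% GC. For each, 60 coding bases from 1 exon are printed 5′ to 3′ on the messenger strand (GENCODE M21, GRCm38), from the window whose GC content is nearest to that of the whole transcript, with G and C in capitals. They stand in order of GC content, from Tmed5 (chr5:108126011-108126070, exon 3 of 4) and Phex (chrX:157403468-157403527, exon 3 of 22) through Spp1 (chr5:104439486-104439545, exon 5 of 6) and Sf3b5 (chr10:13008746-13008805, exon 1 of 1) to Phospho1 (chr11:95830574-95830633, exon 3 of 3) and H1fx (chr6:87981297-87981356, exon 1 of 1). Tmed5, Phex and H1fx lie on the minus strand.
Tmed5: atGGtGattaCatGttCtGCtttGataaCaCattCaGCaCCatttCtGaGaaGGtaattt
Phex: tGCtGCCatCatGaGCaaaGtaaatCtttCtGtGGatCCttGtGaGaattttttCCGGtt
Spp1: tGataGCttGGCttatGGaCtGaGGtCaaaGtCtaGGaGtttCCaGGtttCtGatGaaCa
Sf3b5: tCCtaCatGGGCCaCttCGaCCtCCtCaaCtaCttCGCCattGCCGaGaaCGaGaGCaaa
Phospho1: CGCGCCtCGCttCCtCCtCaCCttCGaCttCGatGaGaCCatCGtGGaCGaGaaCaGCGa
H1fx: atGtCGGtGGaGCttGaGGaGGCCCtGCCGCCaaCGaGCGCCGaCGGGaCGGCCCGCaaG
The windows hold 35.0, 40, 43.3, 53.3, 60 and 71.7% GC, and the whole transcripts 35.0, 39.6, 43.3, 45.5, 60.6 and 71.3%. The interactions of the 6 genes as deposited were 2.13, 1.08, 1.08, -1.86, -1.48 and -2.32, all called, higher for the 3 poorest in GC and lower for the other 3. The genes were picked with their values known, so this split only describes the choice. Sf3b5 went against its bin of 45 to 50% GC, where the median was 0.13 and 18.05% were called higher against 9.03% lower. After trend removal the interactions of the 6 genes were 0.66, -0.01, 0.54, -2.20, -0.31 and -0.55, and of these the call held for Spp1 and Sf3b5.

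Across the 13340 genes, the interaction as deposited followed GC content of the longest transcript with a Spearman rho of -0.77. The coding part gave -0.67 (9220 genes) and the 3′ untranslated region -0.70 (8955 genes). GC content of the promoter, from RefSeq (GRCm38.p6) for 8883 of 11049 protein-coding genes, gave -0.00032, and transcript length gave 0.22. After trend removal the transcript, coding, untranslated and promoter values were -0.04, -0.03, -0.06 and 0.06. These are descriptions across genes, which share libraries and are not independent replicates.

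The order by GC content came from both nanotopography groups, in opposite directions. Each library's median log2 deviation from the mean of the 12 was taken for genes of 60% GC and over, minus that for genes under 40%. In NN the 3 libraries gave 1.28, 0.48 and 1.16, and in NN+OC -1.89, -0.995 and -1.14. CN gave -0.11, 0.16 and 0.45, and CN+OC gave -0.08, 0.27 and 0.38. Both groups on control titanium overlapped, whereas every NN library lay above 0 and every NN+OC library below it. Some libraries of CN and CN+OC also lay above 0, which is the mean of the 12. Replicate 2 of NN, at 0.48, was close to replicate 3 of CN, at 0.45. The NN side of the order thus rested mostly on replicates 1 and 3. Replicate 1 of NN+OC, the steepest, also had the largest share of mitochondrial ribosomal RNA. All 12 lay between -0.08 and 0.04 after trend removal.

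**Figure D2:**
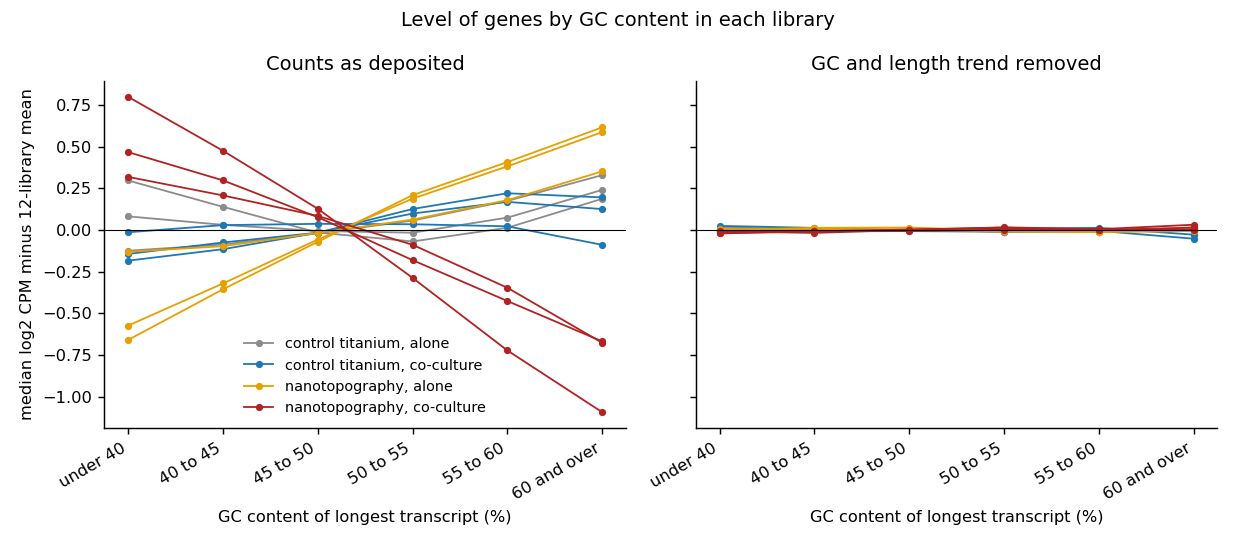
Median log2 CPM of the genes in each GC bin, relative to the mean of the 12 libraries, with 1 line per library coloured by group. As deposited, the NN lines rise and the NN+OC lines fall with GC content, from 0.80, 0.32 and 0.47 under 40% GC to -1.09, -0.68 and -0.67 at 60% and over in NN+OC. The right panel shows the same medians with the trend removed.

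The called genes were sorted by how their 2 osteoclast effects compared. A response is larger or smaller on nanotopography where both effects have the same sign, and opposite where the signs differ, whether or not each effect was called. As deposited, 1931 of the 6383 responses were larger (30.2%), 200 smaller (3.13%) and 4252 opposite (66.6%). Strictly opposite, with both osteoclast effects called, were 410. With the trend removed, 688 were larger, 181 smaller and 1869 opposite, and 209 strictly opposite. As deposited the opposite responses split by GC content, with a median of 42.1% among those higher in the interaction and 54.6% among those lower. After trend removal these medians were 48.4 and 47.8%. In both analyses 60 genes were strictly opposite.

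The strictly opposite count moved most with single libraries. As deposited it was 119, 144 and 702 without replicate 1, 2 or 3 of CN, 158 and 220 without replicate 2 or 3 of CN+OC and 269 without replicate 3 of NN. Under trend removal it was 84, 79 and 395 without replicate 1, 2 or 3 of CN, 111 without replicate 2 of CN+OC and 348 without replicate 2 of NN. Smaller responses numbered 125 and 123 as deposited without replicate 1 or 2 of CN. Under trend removal they numbered 84, 83 and 329 without replicate 1, 2 or 3 of CN, 108 without replicate 2 of CN+OC, 113 without replicate 1 or 3 of NN+OC, and 104 and 99 without replicate 1 or 3 of NN. Larger responses with the trend removed fell to 433 without replicate 1 of NN+OC and to 451 and 436 without replicate 1 or 3 of NN. Opposite ones fell to 1178 without replicate 1 of NN+OC, 1151 without replicate 1 of CN, and 1210 and 1190 without replicate 1 or 3 of NN.

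The osteoclast effect itself was called for 2622 genes on control titanium (19.7%) and 7892 on nanotopography (59.2%) as deposited, and for 3586 (26.9%) and 5276 (39.6%) with the trend removed. Without replicate 1 or 2 of CN, or replicate 2 of CN+OC, the count on control titanium as deposited was 1483, 1436 and 1629. Among the genes called in the interaction as deposited, 4589 (71.9%) had an osteoclast effect called on nanotopography alone, 587 (9.20%) on control titanium alone, 405 on both with the same sign, 410 on both with opposite signs and 392 on neither. With the trend removed, 1507 (55.04%) were called on nanotopography alone and 597 (21.8%) on control titanium alone. The 2 osteoclast effects share no library. Across the 13340 genes they correlated with a Pearson r of 0.30 and a Spearman rho of 0.10 as deposited, and of 0.48 and 0.33 with the trend removed. Genes called on both surfaces had the same sign in 1227 cases and the opposite in 410 as deposited, and in 1755 and 209 cases with the trend removed.

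**Figure D3:**
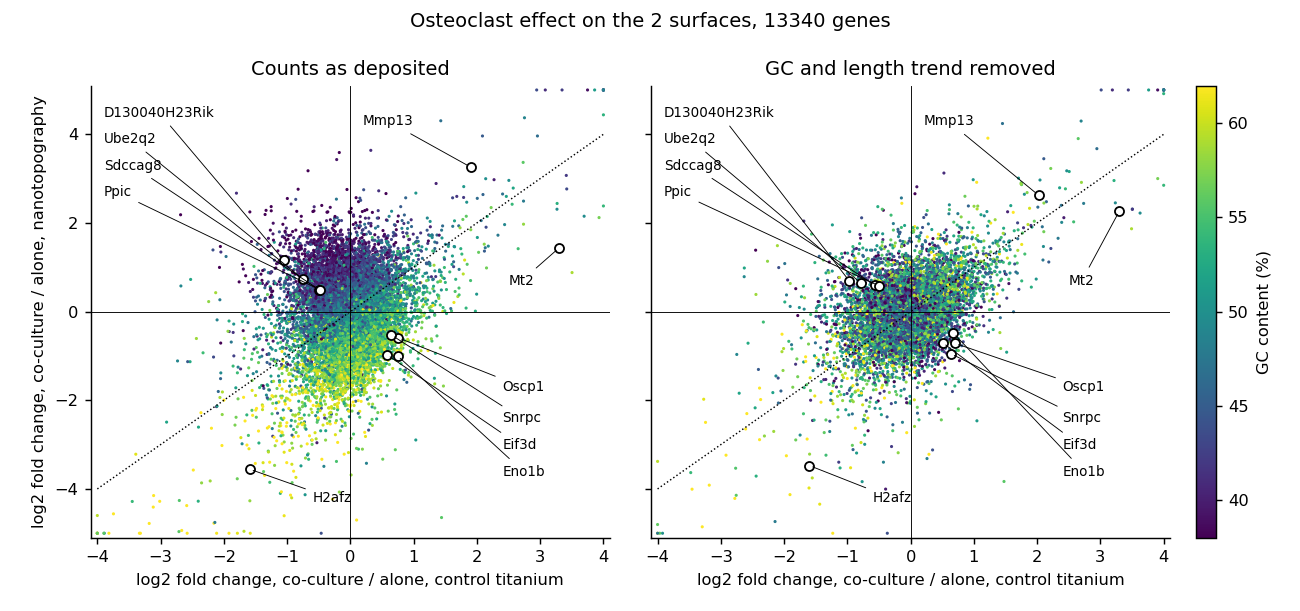
Osteoclast effect on control titanium (horizontal) and on nanotopography (vertical) for each of the 13340 genes, as log2 fold changes coloured by GC content, with equality dotted. Points past 4 or 5 are drawn at the edge. As deposited (left) the vertical spread is ordered by GC content, and the Pearson r goes from 0.30 to 0.48 with the trend removed (right); the 8 strictly opposite genes named in the text lie in the upper left and lower right of both panels.

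Opposite responses that were strict in both analyses are given for 8 genes (gene coordinates here and below are from GENCODE M21, GRCm38), those with the largest weakest osteoclast effect among 39 candidates. Of these, 4 fell with osteoclasts on control titanium and rose on nanotopography. D130040H23Rik (chromosome 8, 69271080 to 69314207) had the largest interaction of these. On control titanium D130040H23Rik measured 9.92, 11.3 and 6.06 CPM in isolated cells and 5.95, 3.35 and 3.77 CPM in co-culture. On nanotopography D130040H23Rik measured 4.72, 6.03 and 2.89 CPM in isolated cells and 12.1, 9.92 and 8.82 CPM in co-culture. Neither pair of groups overlapped. The osteoclast effect was -1.05 ± 0.28 on control titanium and 1.16 ± 0.29 on nanotopography, an interaction of 2.21 ± 0.40 (edgeR adjusted p = 0.000528), and 1.67 ± 0.35 with the trend removed (adjusted p = 0.00284). The E2 ubiquitin-conjugating enzyme gene Ube2q2 (chromosome 9, 55148854 to 55207529) had the same pattern. On control titanium Ube2q2 measured 19.1, 15.2 and 10.3 CPM in isolated cells and 8.76, 8.11 and 9.79 CPM in co-culture. On nanotopography Ube2q2 measured 7.58, 12.1 and 7.83 CPM in isolated cells and 16.03, 15.7 and 14.4 CPM in co-culture. The co-cultures of both surfaces lay outside the range of their isolated cells, below it on control titanium and above it on nanotopography. Its interaction was 1.49 ± 0.30 (adjusted p = 0.00106), and 1.44 ± 0.29 with the trend removed (0.00211). Sdccag8, which encodes a protein of the centrosome and cilium, and Ppic, which encodes the prolyl isomerase cyclophilin C, had interactions of 0.99 ± 0.21 and 0.98 ± 0.18, and of 1.16 ± 0.21 and 1.08 ± 0.17 with the trend removed. Ppic was the most abundant of these, at 146 to 306 CPM. Trend removal used the GC content and length of each gene's longest transcript. For D130040H23Rik and Sdccag8, and for Eif3d and Snrpc below, that transcript has no annotated coding part. Which transcript the cells made was not tested, so their values with the trend removed are less certain.

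The other 4 rose with osteoclasts on control titanium and fell on nanotopography. Eif3d (chromosome 15, 77958998 to 77970813) encodes a subunit of translation initiation factor eIF3. On control titanium Eif3d measured 174, 191 and 231 CPM in isolated cells and 257, 286 and 350.2 CPM in co-culture. On nanotopography Eif3d measured 331, 261 and 326 CPM in isolated cells and 115, 189.6 and 161 CPM in co-culture. In each case the 3 co-culture libraries lay outside the range of the isolated ones. The osteoclast effects were 0.58 ± 0.17 and -0.98 ± 0.17, the interaction -1.56 ± 0.23 (edgeR adjusted p = 0.000169), and -1.21 ± 0.18 with the trend removed (0.000204). Snrpc, which encodes the C protein of the U1 spliceosomal particle, measured 20.5 to 25.4 CPM in CN, 30.9 to 42.8 in CN+OC, 36.2 to 52.1 in NN and 26.9 to 33.8 in NN+OC. Its interaction was -1.18 ± 0.22, and -1.59 ± 0.24 with the trend removed. Oscp1 had -1.35 ± 0.29 and -1.42 ± 0.27. Eno1b, a retrogene of the glycolytic enzyme enolase, had -1.74 ± 0.27 and -1.16 ± 0.21; its reads cannot be set apart from those of Eno1, which is nearly identical.

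The 10 largest higher interactions that were called in both analyses, out of 454 eligible protein-coding genes, were those of Ccdc191, Celf4, Pcdhgb5, D130040H23Rik, Trmt13, Prkg2, Ube2q2, Sltm, Sclt1 and Xlr. They ranged from 1.49 to 2.24 as deposited and from 1.30 to 2.34 with the trend removed. Each of the 10 had an osteoclast effect below 0 on control titanium and above 0 on nanotopography, as deposited, though not each effect was called. Sclt1 (chromosome 3, 41626720 to 41742514), which encodes a protein of the distal appendages of centrioles, is an example in which the nanotopography side was called alone. On control titanium Sclt1 measured 19.2, 16.8 and 13.1 CPM in isolated cells and 13.9, 13.7 and 11.8 CPM in co-culture. On nanotopography Sclt1 measured 8.59, 10.7 and 5.62 CPM in isolated cells and 32.5, 20.6 and 22.1 CPM in co-culture. The groups overlapped on control titanium and were apart on nanotopography, where the osteoclast effect was 1.58 ± 0.22 (edgeR adjusted p = 1.79e-05) against -0.32 ± 0.21 (0.307) on control titanium. Its interaction was 1.90 ± 0.31 (0.000276), and 1.31 ± 0.24 (0.00119) with the trend removed. Ccdc191 went from 6.73 to 12.7 CPM in CN to 5.58 to 7.68 in CN+OC, which overlap, and from 4.08 to 8.39 in NN to 13.0 to 15.6 in NN+OC, which do not. Trmt13 encodes a transfer RNA methyltransferase, Prkg2 a protein kinase activated by cyclic GMP, Celf4 an RNA-binding protein, Sltm a modulator of transcription, and Pcdhgb5 a protocadherin of the gamma cluster, whose members share exons. The call of Xlr with the trend removed was lost under 7 omissions of 1 library, without replicate 2 or 3 of CN+OC, 1 or 3 of NN+OC, 1 of CN, or 1 or 3 of NN (0.96 to 1.28).

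The 10 largest lower interactions called in both analyses, out of 877 eligible genes, were those of Grcc10, Rilpl2, H2afj, H2afz, Sf3b5, Ndufa12, Oaz1, Uqcrq, Ptma and Rnaseh2c, from -2.68 to -1.65 as deposited and from -2.20 to -1.62 with the trend removed. Of these, 8 were larger responses, lower with osteoclasts on both surfaces and more so on nanotopography, and Rilpl2 and Ptma were opposite. For Ndufa12, 1 of the 8, the effect on control titanium was not called as deposited (-0.39 ± 0.16, edgeR adjusted p = 0.101). Sf3b5 (chromosome 10, 13005343 to 13009183), a subunit gene of the spliceosomal SF3b complex, has 45.5% GC over its longest transcript. That lies below the median of 49.0% over all genes tested. Its coding part has 61.3% and its 3′ untranslated region 52.7%, above the medians of 52.8 and 44.4% for those parts. Trend removal used the value of the longest transcript. For Grcc10, Rilpl2 and Oaz1 the longest transcript has no annotated coding part. On control titanium Sf3b5 measured 36.01, 32.5 and 38.2 CPM in isolated cells and 18.7, 17.8 and 19.7 CPM in co-culture. On nanotopography Sf3b5 measured 39.4, 33.1 and 40.5 CPM in isolated cells and 5.53, 5.85 and 4.87 CPM in co-culture. All co-culture libraries lay below all isolated ones, and those of NN+OC were the lowest of the 12. The osteoclast effect was -0.92 ± 0.13 on control titanium and -2.79 ± 0.15 on nanotopography, an interaction of -1.86 ± 0.20 (edgeR adjusted p = 2.4e-05). Under trend removal the interaction was -2.20 ± 0.20 (1.53e-06).

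Histone variants and subunits of the respiratory chain were among these genes. On control titanium H2afz measured 19.4, 14.2 and 17.8 CPM in isolated cells and 3.35, 6.85 and 7.23 CPM in co-culture. On nanotopography H2afz measured 19.2, 21.9 and 20.2 CPM in isolated cells and 2.13, 1.27 and 1.83 CPM in co-culture. H2afz encodes the variant histone H2A.Z, and its groups did not overlap on either surface. The interaction was -1.97 ± 0.38 (0.000739), and -1.87 ± 0.37 (0.00179) with the trend removed. H2afj, another H2A variant, went from 41.5 to 56.4 CPM in CN to 15.03 to 23.4 in CN+OC and from 73.0 to 85.1 in NN to 3.83 to 7.25 in NN+OC, an interaction of -2.58 ± 0.28 and -1.90 ± 0.21. Uqcrq, a complex III subunit, measured 32.1 to 39.4, 19.4 to 26.8, 34.1 to 42.5 and 4.12 to 7.63 CPM in CN, CN+OC, NN and NN+OC. Ndufa12, a complex I subunit, measured 23.6 to 29.5, 18.1 to 23.2, 34.5 to 49.3 and 5.68 to 8.37 CPM in the same order. Oaz1, the antizyme that restrains polyamine synthesis, and Rnaseh2c, a subunit of ribonuclease H2, had interactions of -2.54 ± 0.30 and -2.68 ± 0.41, and of -1.75 ± 0.23 and -1.62 ± 0.31 with the trend removed. Ptma, which encodes prothymosin alpha, differed from them in that its osteoclast effect on control titanium was above 0, though not called (0.22 ± 0.12, edgeR adjusted p = 0.22). Its level there was 78.4 to 93.3 CPM in isolated cells and 91.7 to 113 in co-culture. On nanotopography it went from 111 to 129 CPM to 36.6 to 50.5, and its interaction was -1.65 ± 0.18, and -1.85 ± 0.16 with the trend removed. H2afz, Ptma and Oaz1 have near-identical copies to which reads could be assigned, so their levels are uncertain.

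**Figure D4:**
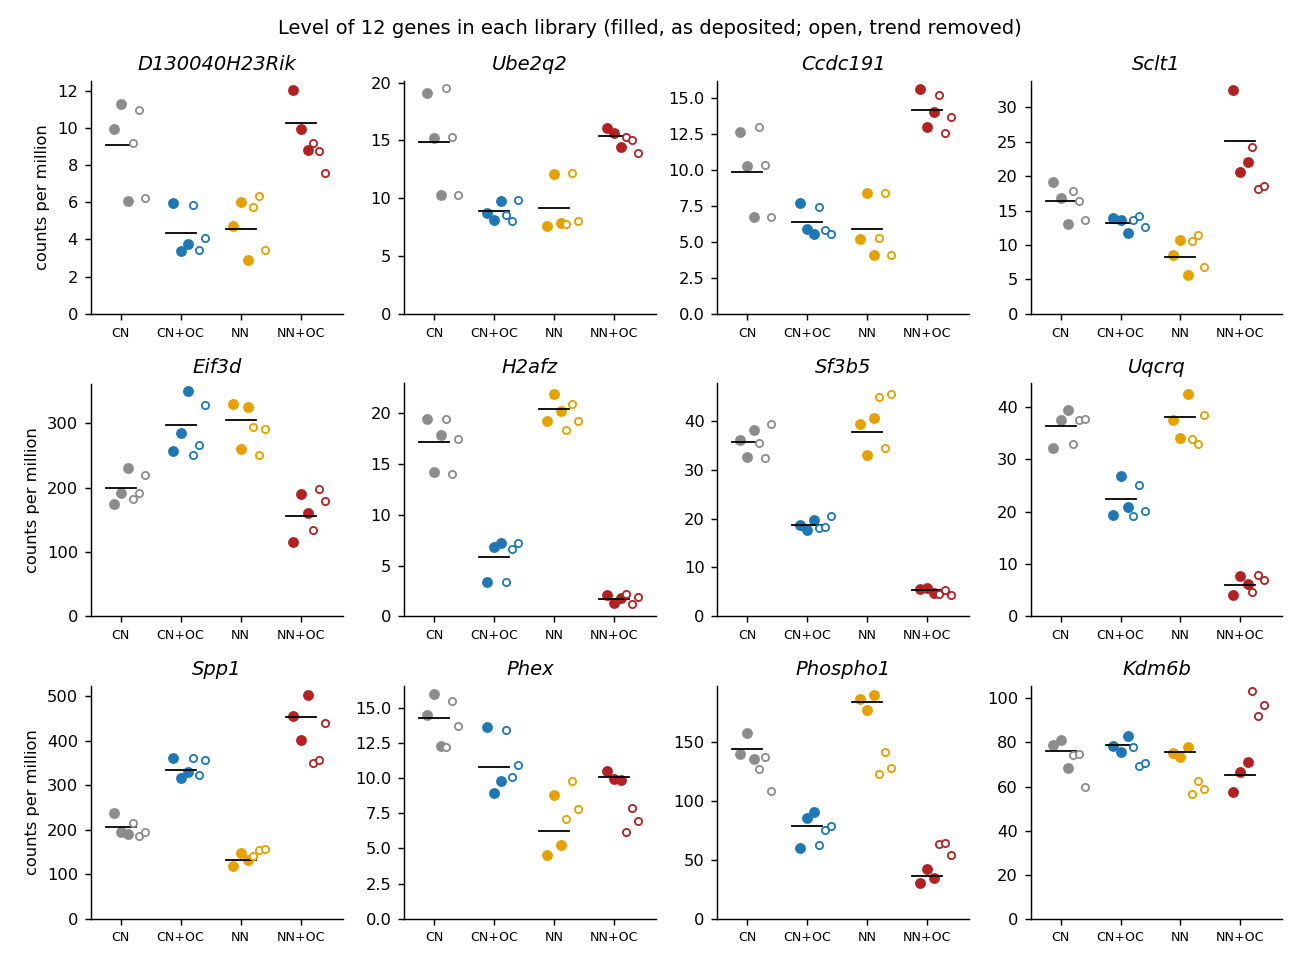
CPM of 12 genes in each library, with filled points and a bar at the mean for counts as deposited and open points with the trend removed. CN and NN are isolated cells on control titanium and nanotopography, and CN+OC and NN+OC the co-cultures. Sf3b5 stands at 4.87 to 5.85 CPM in NN+OC and at 17.8 or more in the other libraries, while the open points of Kdm6b and Phospho1 lie away from the filled ones.

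The largest interactions as deposited that were not called in the same direction with the trend removed came from both ends of the GC scale. The 5 highest of 1791 were those of Kif18a, Tmed5, Zfp947, Zfp820 and Zfp760, with 34.97 to 38.5% GC, and the 5 lowest of 2001 those of H1fx, Gsc, Ap5b1, Bola1 and Scrn2, with 56.6 to 71.3% GC. Tmed5 (chromosome 5, 108106366 to 108132620) encodes a protein of transport vesicles between endoplasmic reticulum and Golgi. On control titanium Tmed5 measured 32.1, 20.1 and 16.99 CPM in isolated cells and 20.01, 11.6 and 14.5 CPM in co-culture. On nanotopography Tmed5 measured 6.57, 15.4 and 9.53 CPM in isolated cells and 34.9, 25.9 and 32.9 CPM in co-culture. The groups overlapped on control titanium and were apart on nanotopography. Its interaction was 2.13 ± 0.38 (edgeR adjusted p = 0.000493) as deposited and 0.66 ± 0.24 (0.0578) with the trend removed, and the latter was called without replicate 1 of CN+OC, 3 of CN or 2 of NN (0.71 to 0.84). H1fx (chromosome 6, 87980421 to 87981637) encodes a linker histone. On control titanium H1fx measured 22.3, 24.2 and 29.3 CPM in isolated cells and 1.41, 1.96 and 0.603 CPM in co-culture. On nanotopography H1fx measured 48.4, 44.6 and 53.8 CPM in isolated cells and 0.284, 0.382 and 0.913 CPM in co-culture. The co-cultures of both surfaces were below the isolated cells, and the osteoclast effect was called on both with the trend removed (-3.46 ± 0.24 and -4.01 ± 0.31). Its interaction went from -2.32 ± 0.52 (0.00192) to -0.55 ± 0.54 (0.506). Kif18a, a mitotic kinesin gene, went from 2.27 to 0.98, and Gsc, a homeobox gene, from -2.12 to -0.57. The longest transcripts of Kif18a and Scrn2, used for trend removal, have no annotated coding part. Kif18a, Zfp820, Zfp760 and Ap5b1 were called with the trend removed without 1 or more single libraries, at 1.04 to 1.15 (without replicate 3 of CN+OC, or 2 or 3 of CN), 1.01 (3 of CN+OC), 0.96 and 1.18 (2 of NN+OC, 1 of CN+OC) and -1.22 (3 of CN).

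Among 18 panel genes of bone formation and histone methylation, Spp1 alone was called with the same sign in both analyses. Spp1 (chromosome 5, 104435118 to 104441050) encodes osteopontin, a phosphoprotein of bone matrix. On control titanium Spp1 measured 238, 195 and 189.6 CPM in isolated cells and 361, 316 and 329 CPM in co-culture. On nanotopography Spp1 measured 118, 149 and 133 CPM in isolated cells and 455, 402 and 504 CPM in co-culture. The co-cultures were above the isolated cells on both surfaces with no overlap, and NN+OC was the highest group while NN was the lowest. The osteoclast effect was 0.69 ± 0.12 on control titanium and 1.77 ± 0.12 on nanotopography. The interaction was 1.08 ± 0.17 (edgeR adjusted p = 0.00024), and 0.54 ± 0.13 (0.00805) with the trend removed. Ibsp, which encodes bone sialoprotein, did not pass in either analysis (0.26 ± 0.21 and -0.08 ± 0.17), nor did the osteocalcin genes Bglap (-0.46 ± 0.25 and 0.39 ± 0.24) and Bglap2 (-0.19 ± 0.23 and 0.71 ± 0.29), near-identical copies whose reads may be split, nor Dmp1 (0.69 ± 0.38 and 0.98 ± 0.37). Without replicate 3 of CN+OC, Dmp1 was called in both (1.08 and 1.34), as it was with the trend removed without replicate 3 of CN (1.16). Bglap2 was called with the trend removed without replicate 1 of CN+OC, 2 of NN+OC or 3 of CN (0.93, 0.92 and 0.80).

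Another 8 panel genes, Sp7, Alpl, Col1a1, Phex, Smpd3, Phospho1, Setd7 and Ehmt2, were called as deposited and not with the trend removed. Phospho1 (chromosome 11, 95824499 to 95832140) encodes a phosphatase that starts mineralisation in matrix vesicles. On control titanium Phospho1 measured 139.6, 158 and 135 CPM in isolated cells and 59.7, 85.8 and 90.9 CPM in co-culture. On nanotopography Phospho1 measured 186, 177 and 189 CPM in isolated cells and 30.4, 42.6 and 34.7 CPM in co-culture. Co-culture levels were below isolated ones on both surfaces without overlap. The interaction was -1.48 ± 0.21 (edgeR adjusted p = 0.00011), and -0.31 ± 0.15 (0.152) with the trend removed. Smpd3, the sphingomyelinase of bone mineralisation, went from -0.90 ± 0.14 to -0.20 ± 0.12, although its osteoclast effect was called on both surfaces in both analyses (-1.58 ± 0.08 and -1.78 ± 0.08 with the trend removed). The alkaline phosphatase gene Alpl went from -0.68 ± 0.19 to 0.17 ± 0.12, the transcription factor gene Sp7 from -0.46 ± 0.14 to 0.21 ± 0.12, and Col1a1, the main collagen gene of bone, from -0.76 ± 0.17 to 0.14 ± 0.13, each with a change of sign. Phex, the endopeptidase lost in X-linked hypophosphataemia, went from 1.08 ± 0.31 to -0.01 ± 0.25. The histone H3 lysine methyltransferase gene Ehmt2 went from -1.22 ± 0.20 to -0.10 ± 0.11 and Setd7 from 0.48 ± 0.15 to 0.22 ± 0.11. Ehmt2, Phospho1 and Col1a1 have 60.8, 60.6 and 58.9% GC, and Phex has 39.6%.

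Runx2, Tnfrsf11b and Kdm6b were called with the trend removed and not as deposited. Kdm6b (chromosome 11, 69398508 to 69413675) encodes a demethylase of histone H3 lysine 27. On control titanium Kdm6b measured 79.1, 81.04 and 68.3 CPM in isolated cells and 78.3, 75.9 and 83.02 CPM in co-culture. On nanotopography Kdm6b measured 75.3, 73.4 and 77.9 CPM in isolated cells and 57.5, 66.5 and 71.2 CPM in co-culture. As deposited the control groups overlapped and NN+OC lay below NN, with an interaction of -0.27 ± 0.15 (edgeR adjusted p = 0.151). With the trend removed the levels were 56.6, 62.6 and 59.1 CPM in NN and 103, 91.9 and 97.03 CPM in NN+OC, and the interaction was 0.65 ± 0.13 (0.00251), opposite in sign. Runx2, the transcription factor that starts osteoblast differentiation, had 0.39 ± 0.17 (0.0661) and 0.49 ± 0.15 (0.028). Its call with the trend removed was lost under 8 omissions of 1 library, replicates 1 and 2 of CN+OC, 1 and 3 of NN+OC, 1 and 2 of CN and 1 and 3 of NN (0.42 to 0.50). As deposited Runx2 was called without replicate 3 of CN+OC, 2 of NN+OC, 3 of CN or 2 of NN (0.44 to 0.49). Tnfrsf11b, osteoprotegerin, had 0.21 ± 0.16 (0.282) and -0.40 ± 0.12 (0.0209), the latter lost without replicate 1 of NN+OC (-0.34) or 2 of CN (-0.35). Ezh2 and Kdm1a, a methyltransferase and a demethylase of histone H3, passed in neither analysis.

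Gene lists are described by counts and medians beside those of all tested genes, which were 22.4% called higher and 25.4% lower with a median of -0.05 as deposited, and 8.28% and 12.2% with a median of -0.01 with the trend removed. Many genes of the respiratory chain and the proteasome were lower in the interaction in both analyses. Of 37 nuclear-encoded respiratory chain genes, 24 were lower and 2 higher as deposited (median -0.99), and 19 lower and 2 higher with the trend removed (median -0.42). Leaving out 1 library gave 14 to 21 lower with the trend removed. Uqcrc1, a core subunit of complex III chosen after its values were seen, has a called interaction in both. On control titanium Uqcrc1 measured 60.4, 66.9 and 94.9 CPM in isolated cells and 75.9, 97.4 and 81.2 CPM in co-culture. On nanotopography Uqcrc1 measured 141, 103 and 133 CPM in isolated cells and 32.6, 52.8 and 45.2 CPM in co-culture. The control groups overlapped, and NN+OC lay below NN. Its interaction was -1.73 ± 0.26 (edgeR adjusted p = 0.00016), and -1.21 ± 0.18 (0.000265) with the trend removed. Ndufs7, Uqcr11 and Atp5d, subunits of complexes I, III and ATP synthase, had -2.04, -1.96 and -1.94, and -0.88, -0.80 and -0.84 with the trend removed, while Cox8a went from -1.23 to -0.15 and was then not called. Ndufa5, chosen after its values were seen as 1 of the 2 higher genes, was higher in both (0.86 and 1.20).

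Of 31 proteasome genes, 15 were lower and 3 higher as deposited (median -0.56), and 13 lower and 1 higher with the trend removed (median -0.43; 9 to 14 lower when 1 library was left out). Psma4, the higher one and named for that reason, was not called without replicate 3 of CN+OC, 1 or 3 of NN+OC, 2 of CN or 1 of NN. On control titanium Psmb6 measured 89.5, 95.7 and 119.6 CPM in isolated cells and 105, 141 and 127 CPM in co-culture. On nanotopography Psmb6 measured 163, 123 and 160.1 CPM in isolated cells and 39.2, 71.8 and 59.03 CPM in co-culture. Psmb6 encodes a catalytic subunit of the core particle, and on nanotopography its groups did not overlap. Its interaction was -1.68 ± 0.26 (edgeR adjusted p = 0.00018), and -1.22 ± 0.19 (0.000334) with the trend removed. Psmd13, Psmd3 and Psmb2 had -1.60, -1.34 and -1.37, and -1.03, -0.60 and -0.96 with the trend removed, all called. Of 13 linker and replacement histone genes, 10 were lower and 1 higher as deposited (median -1.97), and 7 lower and 0 higher with the trend removed (median -0.88; 6 to 7 lower when 1 library was left out). All 11 called as deposited and all 7 called with the trend removed were larger responses. Hist1h1c, which had the smallest p of the list as deposited and has near-identical copies, measured 81.8 to 108 CPM in CN, 57.8 to 97.2 in CN+OC, 175 to 251 in NN and 14.1 to 26.3 in NN+OC. Its interaction was -3.16 ± 0.29 and -2.40 ± 0.20. H2afj, Hist1h1e and Hist1h1d had -1.90, -2.34 and -3.61 with the trend removed. The share of Gm26917 and Gm42418, given above, was likewise lowest in NN+OC, and its part in these values was not tested.

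Glycolysis and hypoxia genes had a smaller median osteoclast effect on nanotopography than on control titanium. With osteoclasts on control titanium their median effect was 0.81, and on nanotopography 0.37; with the trend removed these were 0.75 and 0.43. Of 27 genes, 14 were lower in the interaction and 1 higher as deposited (median -0.53), and 10 lower and 1 higher with the trend removed (median -0.26; 7 to 13 lower when 1 library was left out). As deposited, 8 of the called genes were opposite responses, 6 smaller and 1 larger. Of the 11 called with the trend removed, 6 were smaller responses, 4 opposite and 1 larger. Over all genes called, 3.13% were smaller and 66.6% opposite as deposited, and 6.61% and 68.3% with the trend removed. On control titanium Pfkl measured 279, 322 and 404 CPM in isolated cells and 509, 627 and 606 CPM in co-culture. On nanotopography Pfkl measured 499, 386 and 455 CPM in isolated cells and 178, 299.7 and 267 CPM in co-culture. Pfkl, the liver form of phosphofructokinase, was thus higher in co-culture on control titanium and lower on nanotopography, with no overlap on either. Its interaction was -1.64 ± 0.24 (edgeR adjusted p = 0.000146), and -0.79 ± 0.14 (0.000861) with the trend removed, where the osteoclast effect on nanotopography was -0.04 ± 0.10. Aldoa and Eno1, for aldolase and enolase, had -1.495 and -1.79, and -0.58 and -0.88 with the trend removed, all called. Pkm, for pyruvate kinase, had -1.26 and then -0.33, which was not called. The 1 higher gene with the trend removed was Vegfa, a growth factor of blood vessels (0.68 ± 0.17), named after its values were seen. Without replicate 1 of CN+OC or 2 of NN 2 genes were higher, as were 2 as deposited without replicate 3 of CN or 2 of NN. Mt2 and Mt1, which encode metal-binding metallothioneins, were lower in the interaction too. On control titanium Mt2 measured 4.57, 4.55 and 9.25 CPM in isolated cells and 46.9, 57.6 and 71.1 CPM in co-culture. On nanotopography Mt2 measured 6.57, 6.92 and 6.46 CPM in isolated cells and 15.6, 18.7 and 19.8 CPM in co-culture. Co-culture was higher on both surfaces without overlap, and its interaction was -1.86 ± 0.33, and -1.03 ± 0.27 with the trend removed (0.0131), a smaller response in both. Mt1 had -1.56 ± 0.29 and -0.97 ± 0.24.

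In other lists the counts as deposited changed once the trend was removed. Calls over all genes also fell, from 22.4 to 8.28% higher and from 25.4 to 12.2% lower. With all 12 libraries, the collagen and lysosome lists held a larger share of lower calls than all genes did in both analyses. Of 26 collagen and collagen-modifying genes, 17 were lower and 3 higher as deposited (median -0.73) and 8 lower and 2 higher with the trend removed (median -0.08), with 5 lower and 1 higher without replicate 1 of NN+OC, 1 of CN, or 1 or 3 of NN, and 1 higher without replicate 2 or 3 of CN+OC. As deposited 1 was higher without replicate 2 of CN+OC, 1 of NN+OC, 1 or 2 of CN or 1 of NN. Serpinh1, the collagen chaperone, was called in both (-1.42 ± 0.19 and -0.58 ± 0.11). Of 29 lysosome and autophagy genes, 18 lower and 1 higher (median -0.58) became 9 and 1 (median -0.22), and 3 to 5 lower without replicate 2 of CN+OC, 1 or 3 of NN+OC, 1 or 2 of CN, or 1 or 3 of NN. The 1 higher became 2 without replicate 1 of CN+OC and 0 without replicate 3 of CN+OC, 3 of NN+OC, or 1 or 3 of NN. Among 20 genes of the integrated stress response, 9 lower and 2 higher (median -0.41) became 3 lower and 6 higher (median -0.07), and 4 to 6 higher when 1 library was left out. Its median GC content, 55.6%, was above the median of 49.0% over all genes. On control titanium Atf4 measured 219, 215 and 203 CPM in isolated cells and 353, 355 and 274 CPM in co-culture. On nanotopography Atf4 measured 143, 154 and 161 CPM in isolated cells and 282, 264 and 322 CPM in co-culture. Atf4 is the central transcription factor of that response, named here after its values were seen, and was higher in co-culture on both surfaces without overlap. Its interaction was 0.30 ± 0.16 (0.134) as deposited and 1.07 ± 0.18 (edgeR adjusted p = 0.000758) with the trend removed, a larger response. Spliceosome and RNA-binding genes, 33 with a median GC of 43.6%, had 16 higher and 10 lower (median 0.39) as deposited and 8 higher and 10 lower (median -0.0019) with the trend removed, with 5 higher without replicate 1 or 3 of NN+OC or 3 of NN. Hnrnpa1 was higher in both (1.71 ± 0.25 and 1.23 ± 0.19), and U2af2 and Snrpb lower in both (-1.48 ± 0.22 and -1.23 ± 0.19, and -0.88 ± 0.15 and -0.87 ± 0.14).

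Of 27 genes of osteoblast differentiation and mineralisation, 10 were lower and 4 higher as deposited (median -0.26) and 3 lower and 6 higher with the trend removed (median 0.17). Without replicate 1 of NN+OC the latter were 1 lower and 3 higher, and without replicate 2 of CN 3 were higher. The summed marker level given above, lowest in NN+OC as deposited, is mostly Col1a1, whose mean was 44692 CPM in CN, 39318 in CN+OC, 45248 in NN and 23435 in NN+OC, and 41390, 35716, 36028 and 34368 CPM with the trend removed. Ibsp and Runx2 were not lowest there, at 8718 and 340.9 CPM in NN+OC against 8362 and 278.9 in CN+OC. Ifitm5, an osteoblast membrane protein gene, was lower in both (-2.29 ± 0.30 and -1.40 ± 0.22), as was Dlx5 (-1.21 ± 0.19 and -0.48 ± 0.15), a homeobox gene of osteoblasts. These genes do not stand for the differentiation list, in which 6 genes were higher and 3 lower with the trend removed. Of 32 histone lysine methyltransferase genes, 12 were higher and 7 lower as deposited (median 0.07), and 7 higher and 4 lower with the trend removed (median 0.21). The 7 became 4 without replicate 1 of NN+OC or 1 of NN and 3 without replicate 1 of CN, and the 4 became 2 without replicate 2 of CN+OC, 1 of NN+OC, 1 of CN or 3 of NN. On control titanium Kmt2e measured 242, 203 and 178 CPM in isolated cells and 209.7, 176 and 197 CPM in co-culture. On nanotopography Kmt2e measured 127, 172 and 132 CPM in isolated cells and 363, 254 and 302 CPM in co-culture. Kmt2e, of the MLL family, overlapped between the control groups and was higher in all NN+OC libraries than in any NN library. Its interaction was 1.19 ± 0.21 (edgeR adjusted p = 0.000442), and 0.74 ± 0.14 (0.00136) with the trend removed. Setd2, which methylates histone H3 lysine 36, had 1.17 and 0.49, both called, while Ash1l had 0.86 and 0.25, the latter not called. Among 22 demethylase genes 8 were higher and 6 lower as deposited, and 2 and 2 with the trend removed. The latter became 1 higher without replicate 2 of CN+OC, 1 of NN+OC, 2 of CN or 3 of NN, and 1 lower without replicate 3 of CN+OC, 1 or 3 of NN+OC, 1 or 2 of CN or 1 of NN. Kdm4b was lower in both (-1.64 ± 0.23 and -0.70 ± 0.15). Its osteoclast effects with the trend removed were 0.66 ± 0.10 and -0.04 ± 0.11.

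**Figure D5:**
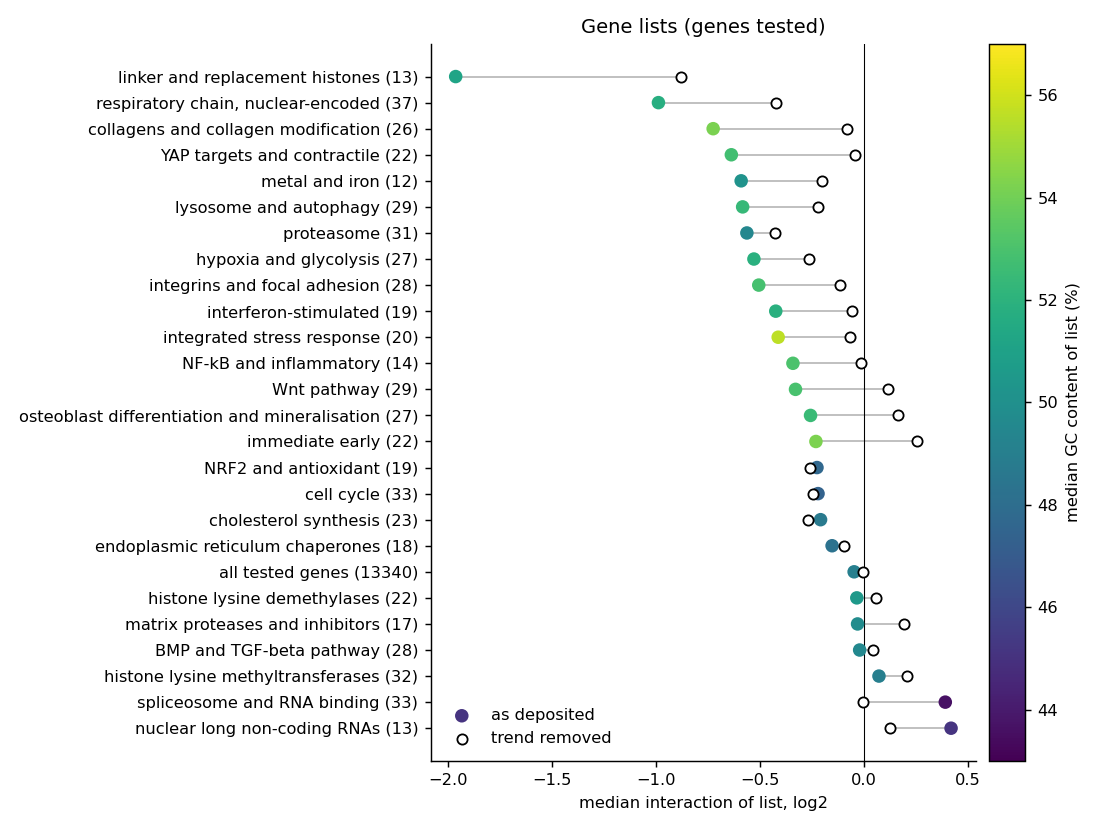
Median interaction of each gene list as deposited (filled, coloured by the median GC content of the list) and with the trend removed (open), with the number of genes tested in brackets. Linker and replacement histones lie lowest in both, at -1.97 and -0.88, followed by the respiratory chain as deposited at -0.99. Across 25 lists, median GC content and median interaction had a Spearman rho of -0.57 as deposited and 0.16 with the trend removed.

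Matrix metalloproteinase 13, a collagenase of bone remodelling, had the smallest p as deposited in its list of 17 proteases and inhibitors, of which 5 were higher and 2 lower as deposited and 5 higher and 0 lower with the trend removed (3 higher without replicate 1 or 3 of NN, and 4 lower as deposited without replicate 2 of NN+OC). On control titanium Mmp13 measured 89.8, 69.4 and 88.5 CPM in isolated cells and 362, 303 and 261 CPM in co-culture. On nanotopography Mmp13 measured 49.9, 75.2 and 67.4 CPM in isolated cells and 693, 515 and 636 CPM in co-culture. The groups did not overlap on either surface, and the osteoclast effect was 1.90 ± 0.16 on control titanium and 3.26 ± 0.17 on nanotopography. Its interaction was 1.35 ± 0.23 (edgeR adjusted p = 0.000319), and 0.60 ± 0.16 (0.0149) with the trend removed, a larger response in both. Timp1, an inhibitor of these enzymes, went from -0.74 ± 0.14 to -0.14 ± 0.11, and was then not called. Among 23 cholesterol synthesis genes, 9 were lower and 2 higher as deposited, and 8 lower and 0 higher with the trend removed, each of the 8 a larger response (5 lower without replicate 1 of NN+OC, 1 or 2 of CN, or 1 or 3 of NN). Mvd and Mvk, which encode enzymes of the mevalonate pathway, had -2.06 ± 0.31 and -1.41 ± 0.25, and -1.04 ± 0.27 and -0.60 ± 0.21 with the trend removed, all called.

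Calls also differed in number between annotation classes and levels of abundance. Of 571 genes of the annotation class TEC, putative transcripts awaiting experimental support, 308 were higher and 4 lower as deposited (median 1.45) and 74 higher and 2 lower with the trend removed (median 0.68). Of 80 sense intronic genes 38 were higher and 1 lower, and with the trend removed 11 and 0 (median 0.75). Processed transcripts (143) had 44 higher and 9 lower, and then 28 and 3. Small nucleolar RNAs (50) had 2 higher and 8 lower (median -0.35), and then 1 and 5. Processed pseudogenes (936) had 91 higher and 194 lower (median -0.16), and then 60 and 88. Protein-coding genes had 884 higher and 1511 lower with the trend removed. Malat1, a nuclear long non-coding RNA, was higher in both (1.65 ± 0.29 and 0.82 ± 0.17). Without a strand setting, reads within introns cannot be set apart from those of the gene around them. By mean level, the 3129 genes of 1 to 5 CPM had 6.62% called higher and 1.98% lower with the trend removed, and the 1743 genes of 100 CPM and over had 9.93% higher and 25.5% lower.

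Macrophage and osteoclast markers were the last group. Of 24, 10 had enough counts to be tested, 2 of them higher and 1 lower as deposited and 2 higher with the trend removed. Over all genes tested, 22.4% were higher and 25.4% lower as deposited, and 8.28% and 12.2% with the trend removed. As deposited the marker counts were thus not above the shares over all genes. The marker counts also rested on single libraries. As deposited the 2 higher became 1 without replicate 1 or 2 of CN+OC or 1 or 2 of NN, and 0 without replicate 3 of NN+OC, 1 or 2 of CN or 3 of NN. The 1 lower became 0 without replicate 3 of CN+OC, 1 of NN+OC, 1 or 2 of CN or 1 or 3 of NN, and 2 without replicate 2 of NN+OC, 3 of CN or 2 of NN. With the trend removed 1 was higher without replicate 1 or 2 of CN+OC, 2 or 3 of NN+OC, 2 of CN or 1 or 3 of NN. On control titanium Csf1r measured 2.87, 2.45 and 1.35 CPM in isolated cells and 1.08, 2.66 and 2.41 CPM in co-culture. On nanotopography Csf1r measured 2.696, 1.47 and 2.04 CPM in isolated cells and 2.55, 7.12 and 10.7 CPM in co-culture. Csf1r encodes the receptor for macrophage colony-stimulating factor, and replicates 2 and 3 of NN+OC were above all other libraries while replicate 1 was not. Cd68, a macrophage lysosomal protein gene, measured 0.709, 5.22 and 4.87 CPM in NN+OC and at most 1.63 CPM elsewhere. Of the 10 markers tested, 8 were not called with the trend removed. Csf1r and Cd68, named for that reason, were the 2 called higher, with interactions of 2.49 ± 0.63 (edgeR adjusted p = 0.00985) and 2.89 ± 0.89 (0.0287). Replicate 1, in which these genes were at the level of the isolated cells, had the steepest order by GC content of the 3.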

How the data were processed

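Total RNA of 12 cultures was sequenced. Per the submitters' processing notes, the authors used cutadapt, FastQC 0.63, STAR 2.4, HTSeq and DESeq2 with mm10; the annotation and the strand setting are not given in the sources used here. Without strand, overlapping and antisense genes cannot be set apart. Each deposited list holds whole-number counts of reads for every gene, not normalized. Of the 12 count lists, 11 end within a line, so the 52654 genes complete in all were used, which hold at least 99.9236% of each library's counts. No pair of libraries was identical.

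Counts were fitted with edgeR 4.0.16 in R 4.3.3 over all 4 groups (TMM scaling, quasi-likelihood test, Benjamini-Hochberg adjustment, threshold 0.05). Trend removal used a loess of span 0.3 on GC content and length of each gene's longest transcript (GENCODE M21), per library, as an offset. The common dispersion corresponds to a coefficient of variation of 12.3% as deposited and 9.42% with the trend removed, at totals of 5866842 to 9207831 counts. limma 3.58.1 and DESeq2 1.42.0 were alternatives, with other scalings, filters and omission of each library. The fit was also run on simulated counts, with no added GC trend or with the same trend added to all NN+OC libraries. In the real data NN had a trend as well, and trends differed within groups, so the simulation does not cover them. P-values set each difference against the spread of samples within groups, estimated over all 12 libraries together. The labels call the 3 samples of a group biological.

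Named genes were chosen first among protein-coding genes with a mean of at least 5 CPM, leaving out symbols that start with Hist, Rpl, Rps or Gm and a digit, as the 10 highest and 10 lowest called alike in both analyses, ranked by the smaller log2 value, the 5 highest and 5 lowest called only as deposited, and up to 8 strictly opposite ones. A panel of 18, the 4 members of each described list with the smallest p, and 4 genes of library composition were added whatever their type or level. The genes and lists were chosen with earlier results of these data known. Replicate numbers did not pair the samples (correlations of same-numbered libraries from -0.39 to 0.30).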

Additional observations from a re-analysis of the deposited data

Results flagged for a closer look

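For 60 genes the osteoclast effect was called in opposite directions on the 2 surfaces, as deposited and with the trend removed. The difference between surfaces was itself called by edgeR. Flagged here are the 8 named above, with the largest weakest osteoclast effect among 39 eligible candidates. The interaction as deposited was higher for D130040H23Rik (2.21), Ube2q2 (1.49), Sdccag8 (0.99) and Ppic (0.98). It was lower for Eno1b (-1.74), Eif3d (-1.56), Oscp1 (-1.35) and Snrpc (-1.18). In each of the 8 the co-culture and isolated libraries did not overlap on either surface. These genes were picked for that reversal, so its presence among them is a description.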

How the results depend on the processing

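The number of genes called in the interaction moved with the correction for GC content and little with the other settings tried. It was 6383 as deposited, and 5615 to 6394 under other scalings, filters, DESeq2, limma-voom, protein-coding genes alone or no mitochondrial genes. Removing the trend gave 2738, and removing it for GC content alone 2864. The same 2 corrections gave 688 and 758 larger, 1869 and 1933 opposite and 209 and 225 strictly opposite responses, and a difference between the end bins of GC content of -0.070 and -0.12. They gave 700 and 617 genes for surface without osteoclasts (1295 as deposited, 2100 with no filter on low counts) and 2385 and 2475 for surface with osteoclasts (5599 as deposited).

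The sign reversed under both corrections for Sp7 (0.21 and 0.17), Alpl (0.17 and 0.13), Bglap (0.39 and 0.29), Bglap2 (0.71 and 0.61), Ibsp (-0.084 and -0.13), Col1a1 (0.14 and 0.23), Tnfrsf11b (-0.40 and -0.44), Ezh2 (-0.15 and -0.20), Kdm6b (0.65 and 0.77) and Kdm1a (0.20 and 0.16). Phex was -0.014 with GC content and length removed and 0.083 with GC content alone, and with both removed and 1 library left out it ran from -0.11 to 0.16, with 4 values above 0 (0.13, 0.079, 0.077 and 0.16), while Ibsp ran from -0.21 to 0.048. What in the libraries produced the trend was not tested.

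Leaving out 1 library at a time gave, as deposited and then with the trend removed, 5310 to 6957 and 1724 to 3383 interaction calls, -2.75 to -2.15 and -0.10 to -0.014 between the end bins, 1530 to 2135 and 433 to 840 larger, 123 to 285 and 83 to 329 smaller, 3314 to 4882 and 1151 to 2400 opposite, and 119 to 702 and 79 to 395 strictly opposite responses. Osteoclast effects numbered 1436 to 2976 and 2403 to 3923 on control titanium and 6725 to 8108 and 4263 to 5526 on nanotopography. Surface effects as deposited numbered 3 to 2877 without osteoclasts (3 without replicate 1 or 2 of CN or 3 of NN, 65 without replicate 1 of NN) and 3274 to 5944 with them.

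Samples of different groups share only a replicate number. With the replicate block the interaction was called for 6231 genes, and for 2467 with the trend removed as well. GC content of merged exons was not computed, since it needs a genome sequence. With 3 libraries a group, genes of few counts such as H1fx in co-culture carry the widest errors.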
